A study of Mus musculus with 9 samples.

Results

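The axonal cytoskeleton of piriform cortex was examined through 9 genes in the 3 microdissected layers: the neurofilament genes Nefl, Nefm and Nefh, their partner Ina, the microtubule-associated genes Mapt and Map1b, the neuronal tubulin gene Tubb3, and the growth cone genes Gap43 and Stmn2. The genes were chosen by name, and each was read on the Ensembl transcript that had the highest mean count over the 9 samples. They stand among 33984 annotated genes and 95533 transcript identifiers in the data. All 9 had a transcript in the data and all 9 passed the low-count filter, which asked for at least 10 counts in at least 3 samples. Their lowest single value was 25 counts, for Nefh in layer A replicate 2.

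RNA of the piriform cortex, the main cortical target of the olfactory bulb, was sequenced from 9 samples labelled layer A, layer B and layer C, with 3 replicates each. The tissue of all 9 came from wild type C57BL/6 mice with no treatment named, with an age of 8 weeks in the sample labels and an older age in the study's methods. Layers were cut by laser from fresh-frozen sections, so each sample holds every cell type of the captured strip, and the letters carry no key to the numbered layers I, II and III. The labels do not say whether replicates are separate mice, so p-values measure the spread between these samples, which may be technical.

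Neurofilaments are the intermediate filaments of mature neurons. They are built from a light chain (NF-L, from Nefl), a medium chain (NF-M, from Nefm) and a heavy chain (NF-H, from Nefh), together with alpha-internexin (from Ina) in the central nervous system, and they set the calibre of large axons. Tau (from Mapt) and MAP1B (from Map1b) bind the microtubules beside them, beta-III tubulin (from Tubb3) is a neuron-specific subunit of those microtubules, and GAP-43 and stathmin-2 act in growing and regenerating axon tips, at the membrane and on free tubulin respectively. A count from a layer covers the mRNA held in the captured strip, in cell bodies and in processes.

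Total counts ran from 23104306 to 76471683 per sample. Mitochondrial ribosomal RNA took 55.3 to 70.2% of the counts in layer A samples, 12.8 to 28.1% in layer B samples and 20.5 to 57.1% in layer C samples. Levels are therefore given as normalized CPM, that is, counts scaled to a common library total after that total was multiplied by a TMM factor. Those factors were 0.467 to 0.919 in layer A samples, 1.09 to 1.63 in layer B samples and 0.679 to 1.54 in layer C samples. A floor of 3 counts, which covers counting error only, corresponds to 0.0392 to 0.13 CPM before that scaling. Layer B replicate 3 stood apart from the other layer B samples. Its log2 levels over all tested transcripts correlated at 0.888 and 0.88 with replicates 1 and 2 of its own layer, and at 0.917 and 0.93 with layer C replicates 1 and 3. Its 10 oligodendrocyte markers summed to 242 CPM against 48.3 and 51.3 in replicates 1 and 2, and its 6 GABAergic markers summed to 280.3 CPM against 57.1 and 52.6. Replicate 3 also had the highest oligodendrocyte sum in layer A, at 315 CPM against 226 and 196. The same held in layer C, at 550 CPM against 156 and 162, so this trait was not particular to layer B. The GABAergic sum of replicate 3 was the lowest in layer A (187 CPM) and the highest in layer C (269.8 CPM). In each layer replicate 3 had the largest total count. Values without layer B replicate 3 are given for the differences from layer B that it moved most.

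In layer A, 6 of the 9 genes were lower than in layer B and 6 were lower than in layer C, by between 2.42-fold and 6.08-fold, and none was higher. Ina, Map1b, Nefm, Gap43 and Stmn2 were lower in both comparisons, Tubb3 passed against layer B and not layer C, and Nefh passed against layer C and not layer B. Nefl and Mapt did not pass in either. Between layers B and C no member passed. These results come from the quasi-likelihood test of edgeR, with p-values adjusted by the Benjamini-Hochberg method over 56416 transcripts and a threshold of 0.05. The 2 comparisons with layer A share its 3 samples and are not independent. In tissue samples, fewer neurons and less of an mRNA in each neuron cannot be told apart.

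The background of these counts was high. Of all transcripts tested, 16.5% passed between layers A and B in either direction and 5.83% passed as lower in layer A. Between layers A and C the shares were 11.3% and 4.35%. Between layers B and C the share was 0%. These shares cover transcripts of every level that passed the filter, minor transcripts of a gene included. The members ranked from 15 (Map1b) to 12308 (Tubb3) of 56416 by mean level, so the shares were not matched to them in abundance. The median log2 fold change was -1.30 over the members and -0.12 over all transcripts for layer A minus layer B. It was -1.58 over the members and -0.01 over all transcripts for layer A minus layer C. The layer A samples lay wholly below the layer B samples in 6 members, where 15.1% of all transcripts did so, and wholly below the layer C samples in 7 members, where 14.5% did so. Layers B and C did not separate in any member, where 8.59% of all transcripts separated in one direction or the other.

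**Figure D1:**
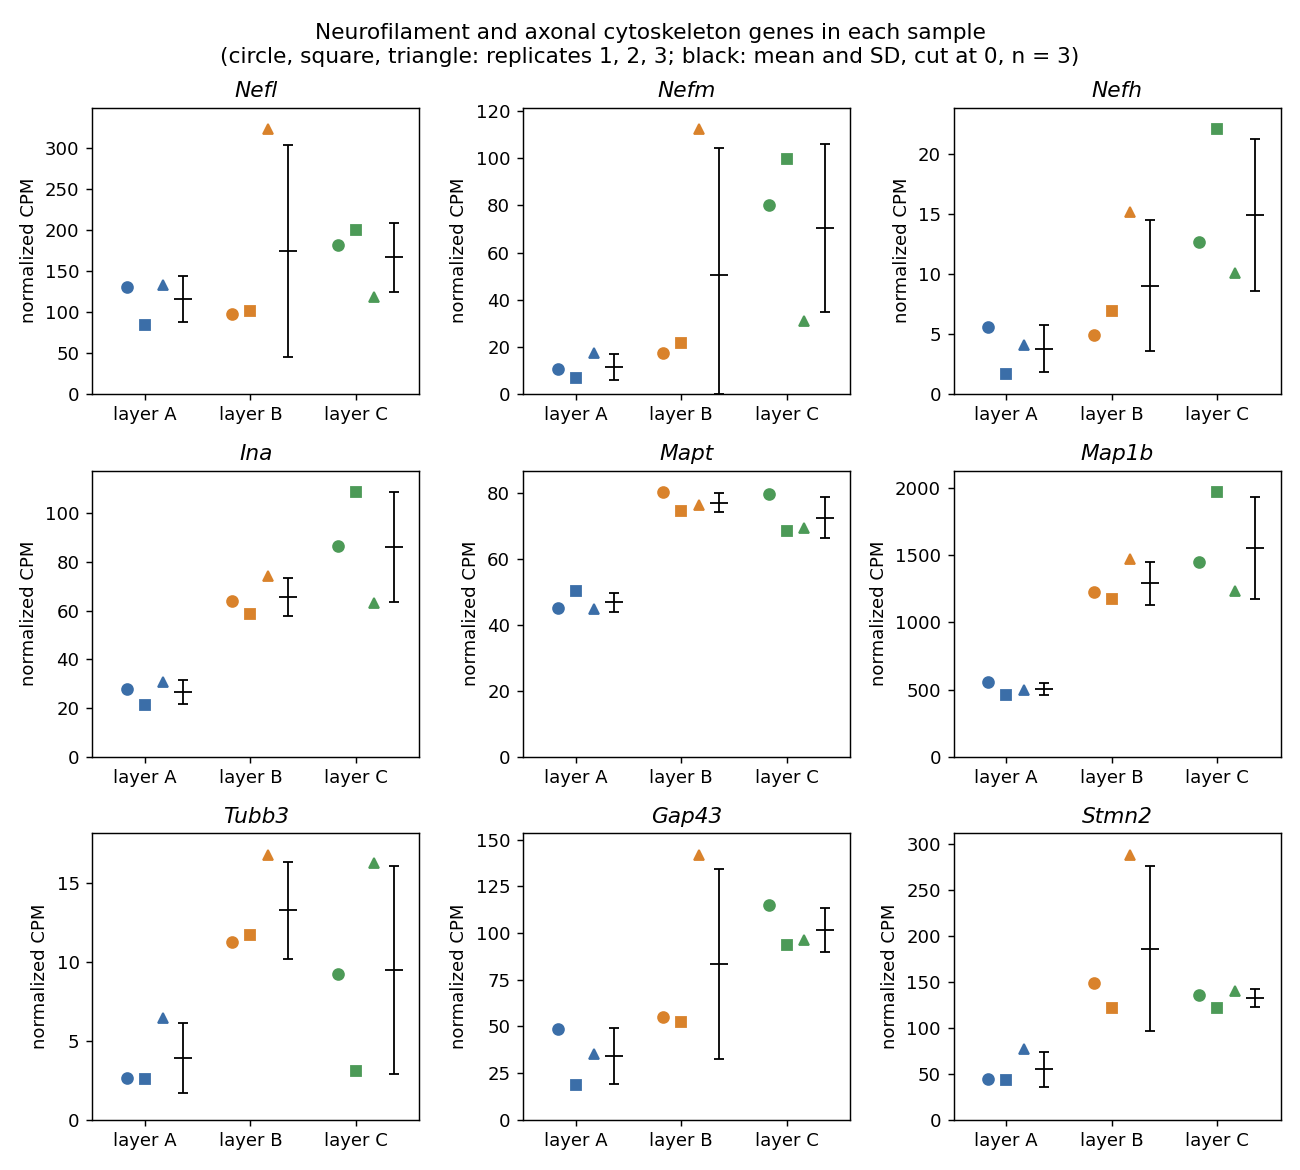
Normalized CPM (y axis, linear, from 0) of each of the 9 genes in the 3 samples of layers A, B and C (x axis), with circles, squares and triangles for replicates 1, 2 and 3 and the mean and SD in black (the lower bar is cut at 0 for Nefm in layer B). The layer A points lie below both other layers for Ina, Mapt, Map1b, Gap43 and Stmn2, and layer B replicate 3 is the highest of its layer in every panel except Mapt.

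For 3 of the 9 genes, Ina, Map1b and Tubb3, RefSeq promoter windows were at hand (GRCm38.p6, 250 bases before to 50 bases after the gene's start). They are shown because Ina and Map1b had the closest profiles of any pair of members over the 9 samples, with a Pearson r of 0.985 between their log2 levels, while the values of Tubb3 with them were 0.50 and 0.498. Capitals mark TATAA and GGGCGG, the letters of the TATA box and of the GC box, on either strand. The Ina window is chr19:47014431-47014730 on the plus strand, that of Map1b is chr13:99516553-99516852 on the minus strand, and that of Tubb3 is chr8:123411303-123411602 on the plus strand.
Ina: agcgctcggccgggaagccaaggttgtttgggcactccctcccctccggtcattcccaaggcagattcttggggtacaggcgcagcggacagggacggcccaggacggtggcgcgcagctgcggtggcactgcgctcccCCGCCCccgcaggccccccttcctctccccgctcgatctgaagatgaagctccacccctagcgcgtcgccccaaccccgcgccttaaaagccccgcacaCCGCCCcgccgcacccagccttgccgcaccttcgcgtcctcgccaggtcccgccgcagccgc
Map1b: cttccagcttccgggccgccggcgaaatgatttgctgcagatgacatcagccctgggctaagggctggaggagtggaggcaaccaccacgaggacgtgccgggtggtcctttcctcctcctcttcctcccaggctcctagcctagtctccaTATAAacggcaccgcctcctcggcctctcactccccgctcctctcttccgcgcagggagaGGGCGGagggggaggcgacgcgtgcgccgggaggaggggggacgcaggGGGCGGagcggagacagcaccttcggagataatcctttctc
Tubb3: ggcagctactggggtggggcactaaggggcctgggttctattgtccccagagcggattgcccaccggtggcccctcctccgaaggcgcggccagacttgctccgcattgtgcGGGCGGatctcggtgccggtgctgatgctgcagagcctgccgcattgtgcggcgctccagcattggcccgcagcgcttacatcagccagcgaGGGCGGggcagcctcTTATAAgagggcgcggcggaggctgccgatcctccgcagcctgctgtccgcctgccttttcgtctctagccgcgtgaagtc
GGGCGG occurred 2 times in each window and is present in 35.7% of the 32851 promoter windows of that table. TATAA occurred 1 time in Map1b, 2 times in Tubb3 (both strands of the same palindromic letters) and not in Ina, and is present in 24.9% of all windows. The GC contents of 71.7% for Ina, 65.7% for Map1b and 67.3% for Tubb3 compare with a median of 52.7% over all windows. The pair with the closest profiles differed in the TATA letters and shared the GC box letters with Tubb3.

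The light chain gene Nefl had the smallest differences of the filament genes between layer A and the other layers. The transcript ENSMUST00000022639 lies at chr14:68083863-68089095 on the plus strand and has 4 exons. Its level was 130.9, 83.7 and 132.4 normalized CPM in layer A samples, 97.2, 101.3 and 323.8 in layer B samples and 181.6, 199.5 and 118.4 in layer C samples. Layer B replicate 3 was more than 3 times as high as the other layer B samples, and the 3 layers overlapped. The log2 fold change was -0.59 (SE 0.42, 95% interval -1.49 to 0.31, adjusted p = 0.392) for layer A minus layer B and -0.53 (95% interval -1.42 to 0.37, adjusted p = 0.502) for layer A minus layer C. Without layer B replicate 3 the first turned to 0.27 (adjusted p = 0.609), so no direction can be given for Nefl between layers A and B.

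Nefm showed the largest differences of the family. Its transcript ENSMUST00000022638 lies on the opposite strand of the same region, at chr14:68119283-68124846, and has 3 exons. Its level was 10.3, 6.68 and 17.5 normalized CPM in layer A samples, 17.5, 21.4 and 112.6 in layer B samples and 80.4, 99.9 and 31.0 in layer C samples. The layer C samples were all above layer A, while the highest layer A sample reached the lowest layer B sample. Nefm was 6.08-fold lower in layer A relative to layer C (log2 fold change -2.60, SE 0.65, adjusted p = 0.0182). Against layer B it was 4.37-fold lower (log2 fold change -2.13, SE 0.64, adjusted p = 0.0317), but without layer B replicate 3 the log2 fold change was -0.70 (adjusted p = 0.3). This call also ended without layer A replicate 1 or layer A replicate 2 (adjusted p = 0.123 and 0.133). The call against layer C ended without these 2 samples too (adjusted p = 0.0849 and 0.0866).

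Nefh, the heavy chain gene, was the least abundant of the filament genes. Its transcript ENSMUST00000093369 at chr11:4938754-4948064 on the minus strand has 4 exons. Its level was 5.59, 1.67 and 4.06 normalized CPM in layer A samples, 4.90, 6.93 and 15.2 in layer B samples and 12.7, 22.1 and 10.1 in layer C samples. Every layer C sample was above every layer A sample, and layers A and B overlapped. Nefh was 3.96-fold lower in layer A relative to layer C (log2 fold change -1.98, SE 0.51, adjusted p = 0.0209), and layer A minus layer B gave -1.26 (SE 0.50, adjusted p = 0.102), or -0.60 (adjusted p = 0.392) without layer B replicate 3.

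Ina gave the steadiest difference among the filament genes. Its transcript ENSMUST00000037636 lies at chr19:47014698-47025327 on the plus strand, has 3 exons, and at its 5′ end overlaps Nt5c2 on the other strand, which these strand non-specific libraries cannot separate. Its level was 27.8, 21.2 and 30.7 normalized CPM in layer A samples, 64.1, 58.4 and 74.0 in layer B samples and 86.7, 108.5 and 63.2 in layer C samples. All 6 samples of the other layers were well above all 3 of layer A. Ina was 2.46-fold lower in layer A relative to layer B (log2 fold change -1.30, SE 0.29, adjusted p = 0.00711) and 3.24-fold lower than in layer C (log2 fold change -1.69, SE 0.30, adjusted p = 0.00368). Both calls held when any of the 9 samples was left out.

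The proportions among the filament chains were also compared. Ratios of counts per base of transcript within a library do not depend on how libraries are scaled. They do depend on how evenly reads cover each transcript, and whether this differed between layers was not tested. The ratios were computed for 4 pairs of genes picked after the levels had been seen. The ratio of Nefm to Nefl was 0.080, 0.0809 and 0.134 in layer A samples, 0.182, 0.214 and 0.353 in layer B samples and 0.449, 0.508 and 0.265 in layer C samples. The ratio of Nefh to Nefl was 0.0361, 0.0169 and 0.0260 in layer A samples, 0.0426, 0.0579 and 0.0398 in layer B samples and 0.0592, 0.0939 and 0.0718 in layer C samples. For Nefm to Nefl layer A lay below both other layers, and for Nefh to Nefl the 3 layers did not overlap, in the order A, B, C. The ratio of Ina to Nefl was 0.221, 0.264 and 0.242 in layer A and 0.498, 0.567 and 0.557 in layer C, with no overlap. In layer B it was 0.688, 0.602 and 0.238, with replicate 3 at the layer A level. In each separated pair of layers the exact permutation test on log2 ratios gave p = 0.1, which is the smallest that 3 against 3 samples allow, and 0.15 after Benjamini-Hochberg adjustment over the 12 comparisons.

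**Figure D2:**
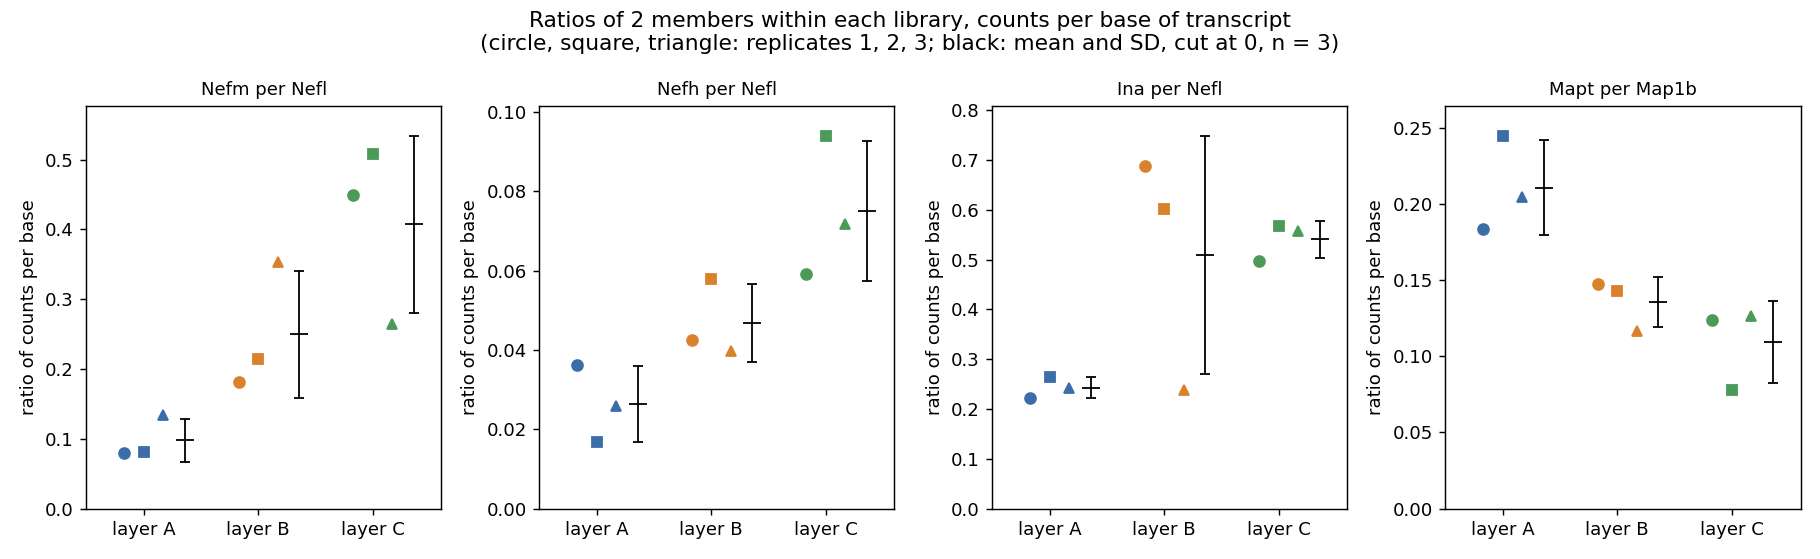
Ratios of counts per base of transcript (y axes, linear, from 0) between pairs of genes in each sample of layers A, B and C (x axis), with the mean and SD in black. The means of Nefh per Nefl are 0.0263, 0.0468 and 0.075 in the order A, B, C, without overlap, and Mapt per Map1b is highest in layer A.

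Map1b was by far the most abundant member, at rank 15 of the 56416 tested transcripts by mean level. Its transcript ENSMUST00000064762 lies at chr13:99421446-99516540 on the minus strand and has 7 exons. Its level was 555.6, 462.4 and 494.7 normalized CPM in layer A samples, 1227, 1174 and 1472 in layer B samples and 1450, 1972 and 1235 in layer C samples. The layer A samples were close together and all less than 0.5 times the lowest sample of the other layers. Map1b was 2.56-fold lower in layer A relative to layer B (log2 fold change -1.36, SE 0.28, adjusted p = 0.00444) and 3.08-fold lower than in layer C (log2 fold change -1.62, SE 0.28, adjusted p = 0.00368), and both calls held when any of the 9 samples was left out.

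Mapt moved less. Its transcript ENSMUST00000106992 lies at chr11:104231390-104332090 on the plus strand and has 10 exons. Its level was 45.3, 50.3 and 45.0 normalized CPM in layer A samples, 80.5, 74.6 and 76.5 in layer B samples and 79.7, 68.6 and 69.4 in layer C samples. Layer A lay below both other layers without overlap and the replicates were tight, but neither difference passed. The log2 fold change was -0.72 (95% interval -1.26 to -0.18, adjusted p = 0.0651) for layer A minus layer B and -0.63 (95% interval -1.17 to -0.09, adjusted p = 0.131) for layer A minus layer C. The ratio of Mapt to Map1b, again per base, was 0.183, 0.245 and 0.204 in layer A samples, 0.147, 0.143 and 0.117 in layer B samples and 0.124, 0.0781 and 0.126 in layer C samples. Layer A was above both other layers in every sample (exact permutation p = 0.1, the smallest possible, 0.15 after adjustment).

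Tubb3 was the scarcest member after Nefh when levels were taken per kilobase of transcript. Its transcript ENSMUST00000071134 at chr8:123411424-123422015 on the plus strand has 4 exons and lies inside the read-through gene Gm20388, so reads may be shared between them. Its level was 2.62, 2.61 and 6.46 normalized CPM in layer A samples, 11.3, 11.7 and 16.8 in layer B samples and 9.20, 3.06 and 16.2 in layer C samples. Layer B was above layer A in every sample, and layer C replicate 2 fell inside the layer A range. Tubb3 was 3.33-fold lower in layer A relative to layer B (log2 fold change -1.74, SE 0.52, adjusted p = 0.0328), and -1.47 (adjusted p = 0.0591) without layer B replicate 3. Layer A minus layer C gave -1.27 (SE 0.52, adjusted p = 0.137). This moved to -0.62 (adjusted p = 0.543) without layer C replicate 3, and to -1.68 (adjusted p = 0.0446), which passed, without layer C replicate 2.

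Gap43, the growth cone gene, was lower in layer A than in both other layers. Its transcript ENSMUST00000102817 lies at chr16:42248442-42340651 on the minus strand and has 3 exons. Its level was 48.5, 18.7 and 35.1 normalized CPM in layer A samples, 55.2, 52.4 and 141.9 in layer B samples and 115.0, 93.4 and 96.4 in layer C samples. Layer A was lowest without overlap, by a narrow margin against layer B and a wide one against layer C. Gap43 was 2.98-fold lower in layer A relative to layer C (log2 fold change -1.58, SE 0.41, adjusted p = 0.0237) and 2.44-fold lower than in layer B (log2 fold change -1.29, SE 0.41, adjusted p = 0.0436). Without layer B replicate 3 the difference from layer B was -0.61 (adjusted p = 0.233). It also did not pass without layer A replicate 2, layer A replicate 3 or any 1 of the layer C samples (edgeR adjusted p 0.0583 to 0.179). Nor did it pass with the size factors of DESeq2 in edgeR or with the 6 samples of layers A and B alone.

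Stmn2 was the growth-associated gene with the clearest difference from layer B. Its transcript ENSMUST00000029002 lies at chr3:8509360-8561606 on the plus strand and has 5 exons. Its level was 44.5, 43.3 and 76.8 normalized CPM in layer A samples, 148.9, 121.4 and 288.7 in layer B samples and 136.0, 121.8 and 140.4 in layer C samples. All 6 samples of layers B and C were above all 3 of layer A. Stmn2 was 3.39-fold lower in layer A relative to layer B (log2 fold change -1.76, SE 0.36, adjusted p = 0.00368) and 2.42-fold lower than in layer C (log2 fold change -1.27, SE 0.35, adjusted p = 0.0296). The first of these held without layer B replicate 3 (log2 fold change -1.25, adjusted p = 0.00782).

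**Figure D3:**
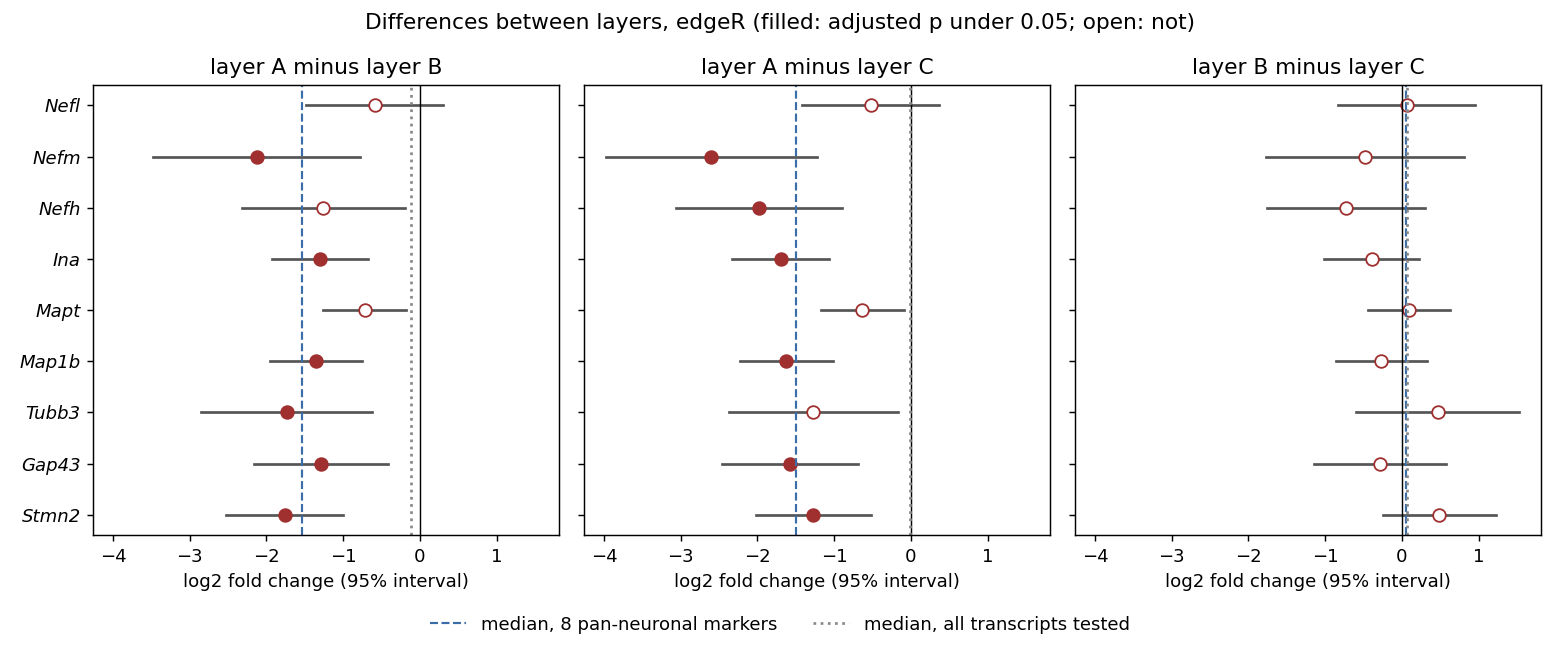
Log2 fold changes (x axes) of the 9 genes (y axis) for layer A minus layer B, layer A minus layer C and layer B minus layer C, with 95% intervals and filled points where edgeR's adjusted p was under 0.05. Dashed lines mark the median of the 8 pan-neuronal markers (-1.54, -1.49 and 0.05) and dotted lines the median of all transcripts (-0.12, -0.01 and 0.07).

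Between layers B and C the members spread around 0, with 4 positive and 5 negative values. The extremes were Nefh at -0.72 (95% interval -1.75 to 0.31) and Stmn2 at 0.49 (95% interval -0.25 to 1.23) for layer B minus layer C. The tightest interval was that of Mapt, 0.09 with a range of -0.45 to 0.63, and the widest was that of Nefm, -0.48 with a range of -1.77 to 0.81. edgeR's quasi-likelihood test called 0 of all transcripts after adjustment and DESeq2 called 0 members. Without layer B replicate 3, Nefl stood at -0.79, Nefm at -1.90, Nefh at -1.38 and Gap43 at -0.96, and none of these passed. With all samples no member had an unadjusted p under 0.05, where 2316 of all transcripts did. The intervals with all samples still allow differences of more than 2-fold in 6 members, all but Nefl, Mapt and Map1b.

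Levels were also taken per kilobase of transcript, which sets genes side by side only where reads cover transcripts evenly. That evenness was not tested. On this scale Map1b was highest in every layer (42.7 ± 4.01, 109.3 ± 13.5 and 131.5 ± 32.1 CPM per kilobase in layers A, B and C, SD, n = 3). Nefl came next in layer A (34.2 ± 8.19), before Stmn2 (26.5 ± 9.18) and Gap43 (24.0 ± 10.5), and neighbours in that order did not differ beyond their spread. In layer B Stmn2 (89.9 ± 43.3), Gap43 (58.6 ± 35.8) and Nefl (51.5 ± 38.4) followed Map1b and could not be told apart from one another within their spread, nor Stmn2 from Map1b. In layer C Gap43 (71.6 ± 8.24) and Stmn2 (64.0 ± 4.70) followed it. Within the filament family the order of the means was Nefl, Ina, Nefm, Nefh in all 3 layers, with Nefl at 49.3 ± 12.6, Ina at 26.6 ± 6.99, Nefm at 21.1 ± 10.7 and Nefh at 3.75 ± 1.59 CPM per kilobase in layer C. Ina and Nefm did not differ there beyond their spread.

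**Figure D4:**
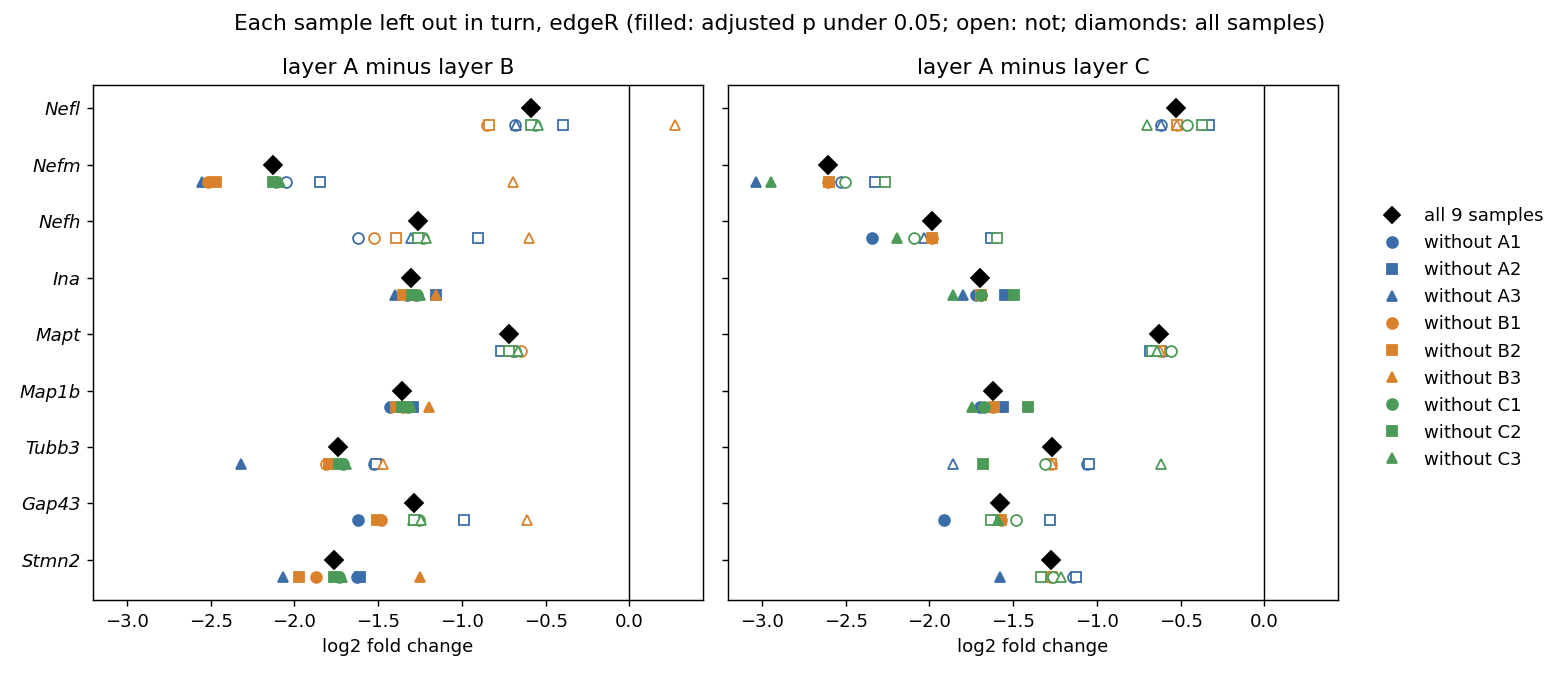
Log2 fold changes (x axes) of the 9 genes (y axis) for layer A minus layer B and layer A minus layer C with all samples (diamonds) and with each sample left out, filled where edgeR's adjusted p was under 0.05. Ina and Map1b stay filled throughout, and leaving out layer B replicate 3 moves Nefl, Nefm, Nefh and Gap43 toward 0 or past it in the first panel.

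The number of members that passed moved with single samples. Without layer B replicate 3, Ina, Map1b and Stmn2 remained of the 6 that were lower in layer A relative to layer B, and all 6 remained against layer C. Leaving out layer A replicate 2, which had the lowest level of its layer in every member except Mapt, kept Ina, Map1b and Stmn2 against layer B and Ina and Map1b against layer C. Leaving out layer C replicate 1 or layer C replicate 2 kept Ina and Map1b of the 6 against layer C, and in the second case Tubb3 passed as well. Against layer B, the highest adjusted p from edgeR with a sample left out was 0.3 for Nefm and 0.233 for Gap43, both without layer B replicate 3, and 0.138 for Tubb3, without layer A replicate 1. Against layer C, it was 0.0866 for Nefm, 0.107 for Gap43 and 0.128 for Stmn2, all without layer A replicate 2, and 0.091 for Nefh, without layer C replicate 2. For these 4 the call against layer C also ended without layer C replicate 1, and all their log2 fold changes stayed below 0 in every such fit.

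In 3 members several transcripts were counted. Nefl and Nefm face each other on chromosome 14, and the second transcript of Nefm, ENSMUST00000111089, runs on past its gene so that 1108 of its exonic bases lie over exons of Nefl on the other strand, while 1232 are shared with the first. Its count was 77.0, 180 and 71.3% of that of the first transcript in layer A samples, 133, 123 and 11.0% in layer B samples and 51.2, 18.97 and 79.1% in layer C samples. Layer B replicate 3 was thus far below its layer, and its high Nefm count lay on the first transcript. The second transcript gave a log2 fold change of -0.93 (adjusted p = 0.108) for layer A minus layer B and -1.38 (adjusted p = 0.028) for layer A minus layer C, and without strand its reads in the overlap cannot be told apart from those of Nefl.

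Mapt had 12 transcripts, of which the first carries a 3′ UTR of 3906 bases and the second, ENSMUST00000106993, one of 251 bases. The count of the second was 5.79, 9.30 and 11.5% of the first in layer A samples, 16.7, 17.4 and 8.36% in layer B samples and 14.004, 9.30 and 12.7% in layer C samples. A transcript limited to the 5′ part of the gene, ENSMUST00000145227, stood at 2.43, 4.12 and 4.77% of the first in layer A samples, 8.79, 8.60 and 1.69% in layer B samples and 6.19, 5.49 and 5.50% in layer C samples. Layer B replicate 3 again lay far below its 2 fellows in both. Whether reads covered transcripts differently in this sample was not tested. Read on the second transcript, Mapt passed as lower in layer A relative to layer B (log2 fold change -1.38, adjusted p = 0.027). Read on the first transcript it did not, so the call on Mapt differed between its transcripts.

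Gap43 had 2 transcripts, the second of which, ENSMUST00000125187, shares 657 bases with the first. Its count was 32.5, 44.6 and 64.2% of the first in layer A samples, 50.4, 42.3 and 84.5% in layer B samples and 34.0, 34.5 and 65.4% in layer C samples. Replicate 3 was the highest in every layer. Its log2 fold change was -1.86 (adjusted p = 0.0326) for layer A minus layer B and -1.52 (adjusted p = 0.0927) for layer A minus layer C.

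**Figure D5:**
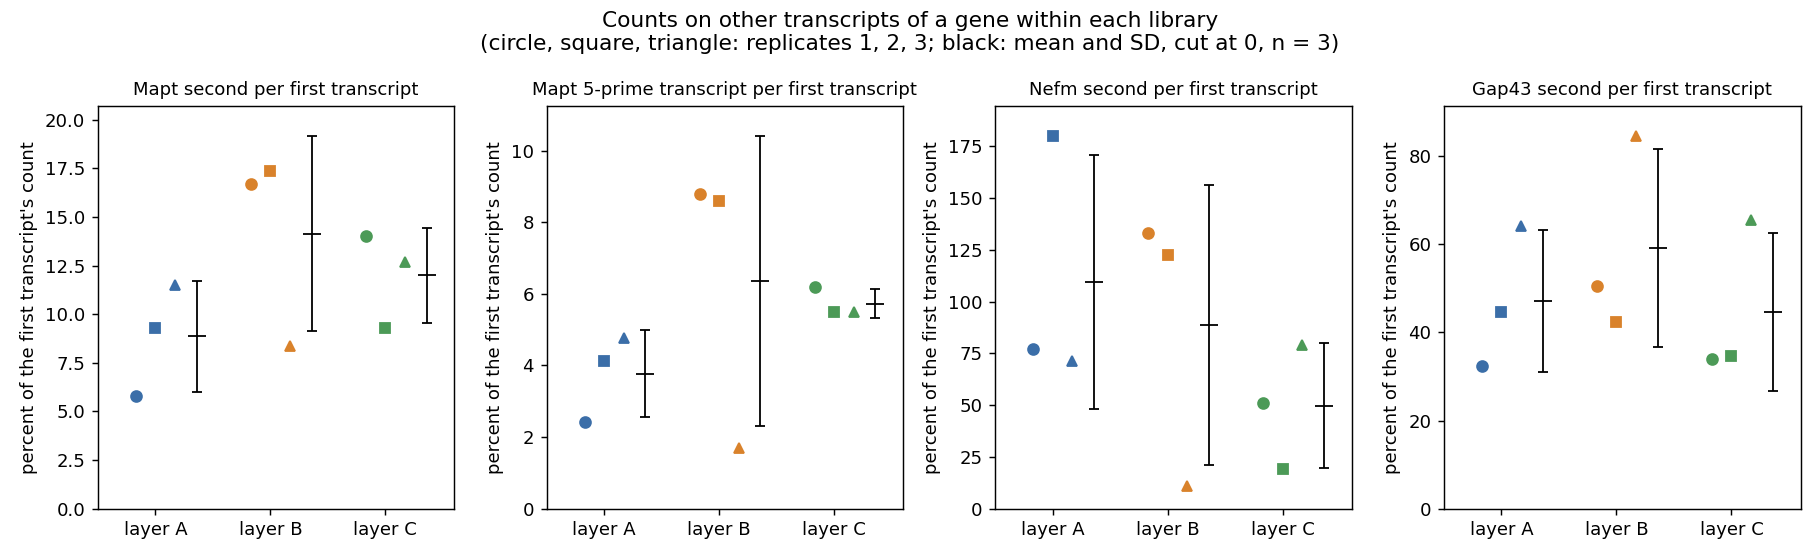
Counts on a second or shorter transcript of Mapt, Nefm and Gap43 as a percent of the count on the gene's first transcript (y axes, linear, from 0) in each sample of layers A, B and C (x axis), with the mean and SD in black. Layer B replicate 3 (orange triangle) is the lowest of its layer for Mapt and Nefm and the highest for Gap43.

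The wider axonal machinery was read on 77 further genes in 7 lists, of which 75 were tested and Prph and Tuba1c were below the filter. In layer A, 5 were higher and 20 lower than in layer B (median log2 fold change -0.72), and 3 were higher and 10 lower than in layer C (median -0.60). Of all transcripts tested, 16.5% and 11.3% passed in these comparisons in either direction, and 5.83% and 4.35% passed as lower in layer A. These shares are also the background of each list below. None of the 75 passed between layers B and C. The counts of passing genes changed with the scaling and with single samples. Without scaling factors 2 were higher and 58 lower than in layer B, and 1 was higher and 21 lower than in layer C. The shares above do not apply to those fits. In them 1831 of all 56416 transcripts were higher and 15143 lower than in layer B. Against layer C 388 were higher and 3882 lower. The total against layer B was 12 without layer A replicate 1 and 12 without layer A replicate 2. The total against layer C was 6 without layer A replicate 1, 3 without layer C replicate 1, 7 without layer C replicate 2 and 21 without layer B replicate 3.

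The 5 genes of these lists that were higher in layer A relative to layer B were Vim, Nes, Macf1, Add3 and Kif5a. Vim, which encodes vimentin of glial, vascular and meningeal cells, was 12.4-fold higher than in layer B (23.1 ± 7.76 against 1.86 ± 1.66 normalized CPM, SD, n = 3, log2 fold change 3.63, adjusted p = 8.36e-04) and by a log2 fold change of 3.64 higher than in layer C. Nes, which encodes nestin of endothelial and progenitor cells, was higher by 2.84 and 2.01. The values against layer B without its replicate 3 were 4.71 for Vim and 3.59 for Nes. The call on Nes against layer C ended without scaling factors (1.24, adjusted p = 0.192) and without layer A replicate 1, layer C replicate 1 or layer C replicate 3 (adjusted p 0.0777 to 0.155). Macf1, a linker between actin and microtubules, was higher than in layer B by 1.04 (adjusted p = 0.0317), but stood at -0.10 without scaling factors, and did not pass without layer A replicate 1 or layer B replicate 1 (adjusted p = 0.127 and 0.12). In the membrane skeleton list Add3, an adducin, was higher by 1.73 and 1.65, while Ank3, which encodes ankyrin-G, the organizer of the axon initial segment, was lower by log2 fold changes of -1.43 and -1.70. Without scaling factors Add3 stood at 0.59 and 0.71 and neither passed (adjusted p = 0.258 and 0.265). Its call against layer C also ended without layer A replicate 1 (adjusted p = 0.058) or layer C replicate 1 (1.61). Ank3 passed in both comparisons whichever sample was left out.

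Among the 10 tubulins tested, 3 were lower in layer A relative to layer B, namely Tubb2a (log2 fold change -2.10), Tubb4a (-1.53) and Tuba4a (-1.35), and Tubb4a also passed against layer C (-1.91). Without layer B replicate 3 none of the 3 passed against layer B, with Tubb2a at -0.38, Tubb4a at -1.05 and Tuba4a at -0.88 (adjusted p = 0.528, 0.063 and 0.107). Nor did any of them without layer A replicate 1 or layer A replicate 2, and Tubb4a did not pass against layer C without layer C replicate 1 (adjusted p = 0.0604). Without layer C replicate 1 Tubb2a and Tuba4a also missed the threshold against layer B, as Tubb2a did without layer C replicate 2. Of 17 microtubule-associated genes 6 were lower than in layer B and 4 than in layer C. They include Map6, which stabilizes microtubules against cold (-1.42 and -1.38), the MAP7 relative Map7d2 (-1.28 and -1.25), the plus-end protein gene Mapre3 (-1.27 against layer B) and Dclk1, a doublecortin relative (-1.52 against layer C). Dclk1 passed whichever sample was left out. Without layer B replicate 3 Map6 stood at -0.94 and Map7d2 at -0.70 against layer B, and neither passed (adjusted p = 0.076 and 0.12). Neither passed in either comparison without layer A replicate 1 or layer A replicate 2, nor against layer C without layer C replicate 1 or layer C replicate 2. Map7d2 also did not pass in either comparison without layer A replicate 3, nor Map6 against layer C without layer C replicate 3. Mapre3 did not pass without layer A replicate 1 or layer B replicate 1 (adjusted p = 0.0584 and 0.0778).

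Of 11 stathmin and growth cone genes none was higher in layer A. Against layer B 4 were lower, with Stmn4, a stathmin, at -2.04, Marcksl1 at -1.997 and Basp1, an abundant membrane protein of growth cones, at -1.79. Stmn4 without layer B replicate 3 stood at -1.07 (adjusted p = 0.0406), Marcksl1 at -1.40 (adjusted p = 0.0242) and Basp1 at -0.46 (adjusted p = 0.349). Stmn4 and Basp1 did not pass without layer A replicate 1 or layer A replicate 2, nor Basp1 without layer A replicate 3. Against layer C 2 were lower, Stmn4 at -1.61 and the collapsin response mediator Crmp1 at -1.20. Stmn4 did not pass there without any 1 of the layer C samples, layer A replicate 1 or layer A replicate 2 (adjusted p 0.0622 to 0.178), nor Crmp1 without layer A replicate 1 or layer C replicate 1 (adjusted p = 0.0838 and 0.138). Of the 7 kinase genes Cdk5r1, which encodes the p35 activator of Cdk5, was lower in both comparisons (-1.74 and -1.23). The first call held whichever sample was left out, and the second ended without layer A replicate 1, layer C replicate 1 or layer C replicate 2 (adjusted p 0.0646 to 0.106).

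Of the 14 axonal motor genes 5 were lower and 1 was higher in layer A relative to layer B, 1 was lower relative to layer C, and 12 had values below 0 in each comparison. Dync1i1, a dynein intermediate chain (-1.94), and Klc1, a kinesin light chain (-1.69), were among the 5, and Kif3a was the one lower than in layer C (-1.27). Dync1i1 without layer B replicate 3 stood at -1.08 (adjusted p = 0.0499) and Klc1 at -0.95 (adjusted p = 0.0576), and neither passed without layer A replicate 1 or layer A replicate 2. Kif3a did not pass without layer A replicate 2, layer C replicate 1 or layer C replicate 2 (adjusted p 0.0584 to 0.0888). Kif5a, which encodes a kinesin heavy chain known to carry neurofilament proteins along axons, was the one that was higher. Its level was 751 ± 229 normalized CPM in layer A samples, 269.6 ± 97.8 in layer B samples and 549 ± 97.5 in layer C samples (SD, n = 3), and it was higher in layer A relative to layer B by a log2 fold change of 1.48 (adjusted p = 0.00654). This call held whichever sample was left out, but without scaling factors the value was 0.38 (adjusted p = 0.434). Layer A minus layer C gave 0.45 (adjusted p = 0.443). Layer B minus layer C gave -1.03 for Kif5a, with an unadjusted p of 0.00658 and an adjusted p of 0.772. No other gene of the lists came as close between those layers.

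Markers of other cells moved with layer A. All 12 astrocyte markers were higher in layer A relative to layer B (median log2 fold change 3.09) and than in layer C (2.44), and their summed level was 5207 to 10838 normalized CPM in layer A against 772 to 1282 in layer B and 1351 to 1807 in layer C. All 8 meningeal markers were higher in both comparisons (medians 5.199 and 4.39), as were 7 and 6 of 8 endothelial markers (3.06 and 2.39) and 5 of 6 microglial markers in each (2.44 and 1.43). Of 10 oligodendrocyte markers 2 were higher than in layer B and none than in layer C (medians 1.27 and -0.25). No marker of these lists was at 0 in every sample of a layer.

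General neuronal markers moved with the members. All 8 pan-neuronal markers were lower in layer A relative to layer B (median log2 fold change -1.54) and than in layer C (-1.49), with a summed level of 1041 to 1586 normalized CPM in layer A samples, 2813 to 6404 in layer B samples and 3243 to 4275 in layer C samples. Snap25, a synaptic vesicle fusion protein and the most abundant of them, stood at 585, 409 and 853 in layer A samples, 1758, 1351 and 4302 in layer B samples and 2387, 2361 and 1468 in layer C samples. It shared the high value of layer B replicate 3 with Nefl, Nefm, Gap43 and Stmn2. Of 7 glutamatergic markers 1 was higher and 3 lower in layer A relative to layer B, and 1 higher and 4 lower than in layer C (medians -1.10 and -1.29), with a summed level of 2332 to 4230 normalized CPM in layer A samples, 1158 to 1254 in layer B samples and 1140 to 1675 in layer C samples. In each comparison 6 of the 7 log2 fold changes were below 0, so the higher sum in layer A rests on the 1 marker above 0. Of 6 GABAergic markers 1 was higher than in layer B and 1 lower than in layer C (medians -0.56 and -0.40), with a summed level of 187 to 344 normalized CPM in layer A samples, 52.6 to 280.3 in layer B samples and 168 to 269.8 in layer C samples. Of the 4 immature neuron markers tested, 1 was lower in layer A relative to layer B and none passed against layer C (medians -0.43 and 0.64). With mitochondrial transcripts left out before the edgeR fit, the same 6 members passed against layer B and the same 6 against layer C. Beyond that refit, the part of the cell makeup and of the mitochondrial share in the members' differences was not tested.

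The genes whose profiles over the 9 samples were most like the mean log2 level of Nefl, Nefm and Nefh, among 15185 genes, were E130311K13Rik (Pearson r = 0.981), Dnajc28 (0.981), Nol3 (0.978), E430024P14Rik (0.974) and Nucb2 (0.973). Those most like Gap43 were Smap1 (0.988), Cmas (0.981), Rgs4 (0.976), Hsp90ab1 (0.969) and Gpr25 (0.969). E430024P14Rik was close to the floor of 3 counts in layer A samples, at 0.254, 0.134 and 0.349 normalized CPM. Among the members, Gap43 was closest to Nefh (0.935), Nefm to Nefh (0.928), and Nefl and Tubb3 were the least alike (0.236). These values are descriptions over 9 samples that share the contrast of layer A with the rest and the high layer B replicate 3.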

How the data were processed

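Laser-captured layers A, B and C of mouse piriform cortex were sequenced in 9 samples. The authors amplified the RNA (Ovation), made strand non-specific libraries and deposited raw counts per Ensembl transcript for each sample, with no normalization. The submitters' processing notes name bcl2fastq 1.8.4, Bowtie, HTSeq 0.5.3 and the mm10 genome; how reads on several transcripts were counted was not given in the sources used here. Of 95533 identifiers, 82807 (86.7%) matched the GENCODE M21 annotation of GRCm38, the assembly of mm10. PCR reads without molecular identifiers are not independent molecules.

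Transcripts reaching 10 counts in 3 or more samples (56416) were scaled by TMM and tested between layers with edgeR 4.0.16 in R 4.3.3 (quasi-likelihood F-test, all 9 samples in one fit, layer as the only term, Benjamini-Hochberg adjustment, threshold 0.05). The scripts were tested on simulated data. SEs were obtained from the log2 fold change and the square root of F, and intervals are at 95%. Total counts per sample were 23104306 to 76471683. Alternatives were DESeq2 1.42.0 as a test and for size factors, no scaling factors, other filters, no mitochondrial transcripts, the highest transcript of each gene, sums by gene, the 6 samples compared, the replicate number as a block and each sample left out in turn. The second transcript of Nefm, Mapt and Gap43 was an alternative chosen after seeing the data, as were the ratios within a library. Sums by gene may hold a read more than once, where it was counted on several transcripts.

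The members and gene lists were chosen with earlier results of these data known. All members were named, with up to 3 passing genes of each pathway list by size of change, or the one with the smallest p where none passed, the most abundant marker genes, and 5 genes of closest profile.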

Additional observations from a re-analysis of the deposited data

How the results depend on the processing

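Without library scaling factors the median log2 fold change over all transcripts shifted from -0.12 to -1.19 for layer A minus layer B and from -0.01 to -0.76 for layer A minus layer C, and the share of calls that were higher in layer A went from 64.7% to 10.8% and from 61.6% to 9.09%. The member medians were then -2.34 and -2.31, with 9 and 7 members lower, and the pathway genes that passed numbered 60 (25 with scaling) and 22 (13 with scaling). Of all 56416 transcripts tested, 15143 and 3882 were then lower in layer A, where 3290 and 2452 were with scaling. With the 6 samples of layers A and B alone, 15 pathway genes and 4 members passed. Leaving out each sample in turn gave 3 to 6 members and 12 to 25 pathway genes between layers A and B, and 2 to 6 members and 3 to 21 pathway genes between layers A and C. DESeq2 called 7 members (Mapt added) against layer B and 6 against layer C.

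Whether the replicate numbers pair the samples is not known. Deviations of samples with the same number correlated at -0.19 to 0.24 over 9 pairs. Those of samples with different numbers correlated at -0.37 to 0.39. These values show no pairing over all transcripts, but they cannot exclude a shared mouse or batch. Replicate 3 had the largest total count and the highest oligodendrocyte marker sum in every layer. With the number as a block 5 members passed between layers A and B, Nefm having an adjusted p of 0.051, 6 between layers A and C and none between layers B and C.

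With each sample left out, the log2 fold change of Nefl ran from -0.85 to 0.27 for layer A minus layer B and from -0.79 to 0.33 for layer B minus layer C, and the latter was -0.059 with the highest transcript of each gene, -0.036 with sums by gene and -0.14 with the replicate block. For layer B minus layer C, Stmn2 ran from -0.020 to 0.70 and Tubb2a from -0.69 to 1.44 with each sample left out, both lowest without layer B replicate 3, Ina was 0.0065 and Map1b 0.13 without scaling factors, and the second Gap43 transcript gave 0.34. Macf1 was -0.10 for layer A minus layer B without scaling factors. The cause of these reversals was not tested. Over members and alternatives, 466 values kept direction and side of the threshold, 37 lost a call, 9 gained one and 10 changed sign. For the named pathway genes the numbers were 627, 74, 0 and 2. Values that did not pass with all samples, such as all those between layers B and C, could not lose a call. Against layer B the call on Gap43 was lost in 8 alternatives, on Nefm in 6 and on Tubb3 in 5. Those on Ina, Map1b and Stmn2 were lost in none. The lowest member counts were 25 for Nefh and 31 for Tubb3, each in a single layer A sample.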

Other observations

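Map2, whose mRNA is known to travel into dendrites, was named after its values were seen. It stood at 809, 402 and 417 normalized CPM in layer A, 267, 316 and 448 in layer B, and 439, 537 and 362 in layer C. The layers overlapped, and edgeR's adjusted p was 0.209 for layer A minus layer B (log2 fold change 0.66) and 0.676 for layer A minus layer C (log2 fold change 0.28). Map1a, the relative of Map1b, was also named after its values were seen. It stood at 478, 368 and 435 in layer A, 506, 708 and 532 in layer B, and 660, 678 and 466 in layer C, with a log2 fold change of -0.45 against layer B (adjusted p = 0.32) and -0.49 against layer C (adjusted p = 0.306). Whether Map2 or Map1a differed from Mapt or Map1b was not tested.

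Dcx, which encodes doublecortin of immature and migrating neurons, was higher in layer B, at 32.8, 27.3 and 30.8 normalized CPM, than in layer A, at 15.7, 16.6 and 17.2 (layer A minus layer B -0.88, edgeR adjusted p = 0.0405). In layer C it stood at 17.1, 23.1 and 17.5, below every layer B sample, but layer B minus layer C (0.66, unadjusted p = 0.0295) did not pass the adjustment. Dpysl4, a collapsin response mediator relative, gave 0.87 for layer B minus layer C (unadjusted p = 0.0477) and did not pass either. Nfasc, which encodes neurofascin of the axon initial segment and the nodes, gave -0.57 for layer B minus layer C (unadjusted p = 0.056).

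Among the Mapt transcripts, ENSMUST00000106989 and ENSMUST00000106988 start at the same base and had counts of 563 and 562 in layer B replicate 1 and of 904 and 904 in layer C replicate 3, so transcripts of a gene are not separate measurements here.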
